A study of Mus musculus with 2 samples.

Results

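Repeat-masked EP300 peaks are peaks of EP300 binding where the genome assembly marks most of the sequence around the summit as repetitive. EP300 is a histone acetyltransferase and coactivator that sequence-specific transcription factors bring to enhancers and promoters. ChIP-seq, in which chromatin is precipitated with an antibody and its DNA sequenced, was run with an EP300 antibody on whole liver of mouse embryos of strain B6NCrl, aged 14.5 days, with males and females mixed and livers of several dissections pulverized together. There were 2 libraries in 1 group, numbered as replicates 1 and 2 but carrying the same biosample label, so the spread between them may be technical, and no input, second tissue or genotype was used here. A peak counted as masked when more than 100 of the bases within 100 bp of its summit, on either side and with the summit base included, were written in lower case in the GRCm38 (mm10) sequence. The rule used genome letters and no measured value. It took 706 of the 17043 peaks of the authors' optimal list that lie on assembled chromosomes, and the remaining 16337 are called other peaks here.

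Most masked mammalian sequence comes from transposable elements, which are copies of long and short interspersed elements, endogenous retroviruses and DNA transposons, and a smaller part is simple tandem repeats. B1 elements are short interspersed elements of rodents that descend from the RNA of the signal recognition particle and carry an internal promoter for RNA polymerase III. Fetal liver is the main site of red cell formation at this age, and GATA1, the GATA factor of red cell precursors, binds the letters WGATAR, where W is A or T and R is A or G. Copies of a mobile element that carry such letters are one known source of binding sites in mammalian genomes. In pulverized tissue the list mixes all cells of the organ, so binding in more cells and stronger binding per cell cannot be told apart.

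The sequences of the strongest masked peaks showed what these regions look like. The bases within 100 bp of the summit are given below for the 2 strongest masked peaks, for a peak in Cd59a with 4 GATA sites, for a peak in St6galnac3 with 6, and for the masked peak with the most, 15, near Padi1. Each is read 5′ to 3′ from the RefSeq GRCm38 sequence, and capitals mark GATA sites (WGATAR on either strand), which may overlap. The Cd59a, St6galnac3 and Padi1 peaks are shown because a repeated unit in each carries the site more than once, and the last 2 were chosen after their values were seen.
Fcnb, intergenic (chr2:28064594-28064794, plus strand): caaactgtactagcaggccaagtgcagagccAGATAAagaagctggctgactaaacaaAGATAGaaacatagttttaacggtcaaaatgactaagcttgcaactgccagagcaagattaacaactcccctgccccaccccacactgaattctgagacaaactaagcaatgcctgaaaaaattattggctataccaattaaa
Slc16a10, intron (chr10:40131801-40132001, plus strand): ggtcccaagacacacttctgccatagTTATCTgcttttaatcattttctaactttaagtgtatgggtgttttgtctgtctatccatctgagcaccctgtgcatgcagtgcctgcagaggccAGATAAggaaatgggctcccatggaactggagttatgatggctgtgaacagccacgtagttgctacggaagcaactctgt
Cd59a, intron (chr2:104098562-104098762, plus strand): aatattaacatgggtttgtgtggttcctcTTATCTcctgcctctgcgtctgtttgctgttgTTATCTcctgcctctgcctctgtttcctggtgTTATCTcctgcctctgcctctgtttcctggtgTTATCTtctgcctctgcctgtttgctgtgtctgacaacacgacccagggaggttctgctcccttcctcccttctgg
St6galnac3, intron (chr3:153685032-153685232, plus strand): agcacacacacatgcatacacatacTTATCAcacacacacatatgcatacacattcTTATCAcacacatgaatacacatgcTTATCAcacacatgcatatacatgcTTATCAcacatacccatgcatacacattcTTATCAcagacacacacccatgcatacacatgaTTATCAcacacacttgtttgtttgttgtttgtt
Padi1, intergenic (chr4:140859874-140860074, plus strand): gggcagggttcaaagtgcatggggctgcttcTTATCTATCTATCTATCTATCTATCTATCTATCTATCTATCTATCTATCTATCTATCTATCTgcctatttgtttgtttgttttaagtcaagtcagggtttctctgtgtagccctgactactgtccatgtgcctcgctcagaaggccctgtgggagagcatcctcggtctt

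Signal is the peak caller's value as the authors deposited it, with no unit that the files state and a separate scale for each list. The 12 strongest masked peaks had signals of 300.7 to 459.3 in the optimal list, and each was found in both libraries. The strongest lay at chr2:28064395-28064870, 20191 bp from the start of Fcnb, which encodes a ficolin, a lectin of innate immunity. It had a signal of 224.7 in replicate 1 and 234.6 in replicate 2, ranks 55 and 37 among the 300000 peaks of each library, and both of its GATA sites were in masked letters. The second, in an intron of Slc16a10, which encodes an amino acid transporter, had 210.9 in replicate 1 and 210.5 in replicate 2, and neither of its 2 GATA sites was in masked letters. The strongest at a promoter lay 371 bp from the start of Kctd3, with 201.3 in replicate 1 and 218.1 in replicate 2. It held no GATA site, and 126 of its bases formed a tandem repeat of a short unit.

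The rest of the 12 lay near genes of varied function. A peak 369 bp from the start of the noncoding RNA gene Gm14221 had 181.5 in replicate 1 and 196.8 in replicate 2. In an intron of Spata5, which encodes an AAA-family ATPase, replicate 1 gave 182.9 and replicate 2 gave 165.6. The peak nearest to the noncoding RNA gene 5430431A17Rik had 176.9 in replicate 1 and 157.1 in replicate 2. For these 3 peaks the values of the libraries lay close together, with neither library the higher throughout. Alkbh8, which encodes a tRNA-modifying enzyme, had a masked peak 3960 bp from its start, with 165.2 in replicate 1 and 163.2 in replicate 2. Sftpb, a surfactant protein gene of the lung, had one at 24896 bp, with 158.6 in replicate 1 and 171.5 in replicate 2. Cd59a encodes a membrane inhibitor of complement, and its peak had 147.5 in replicate 1 and 157.1 in replicate 2. Runx1t1, which encodes a corepressor known from a leukaemia fusion with RUNX1, had a peak 8 bp from a start site, with 155.9 in replicate 1, 147.1 in replicate 2 and no GATA site. Ccdc92b and Numa1, the second a spindle protein gene, complete the 12, at signals of 314.6 and 300.7 in the optimal list.

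Masked summits were rarer than masked windows are in the genome. They made up 4.14% of optimal peaks (95% Wilson interval 3.85 to 4.45), against 28.1% of all windows of that length on the autosomes and X under the same rule, which is 6.79 times the share in peaks. With more than 150 bases masked the shares were 1.24% of peaks and 18.2% of windows, and with all bases masked they were 0.211% of peaks (36 peaks) and 9.86% of windows. At the other end, 44.5% of peaks and 21.8% of windows had no masked base. Among chromosomes, the share of masked peaks ran between 2.73% on chromosome 16 and 5.12% on chromosome 13. The X chromosome, with 42.3% of its windows passing the rule, the highest of the chromosomes with peaks, had 14 masked peaks of 322, or 4.35%. The intervals here and below cover counting error over peaks, not differences between animals.

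**Figure D1:**
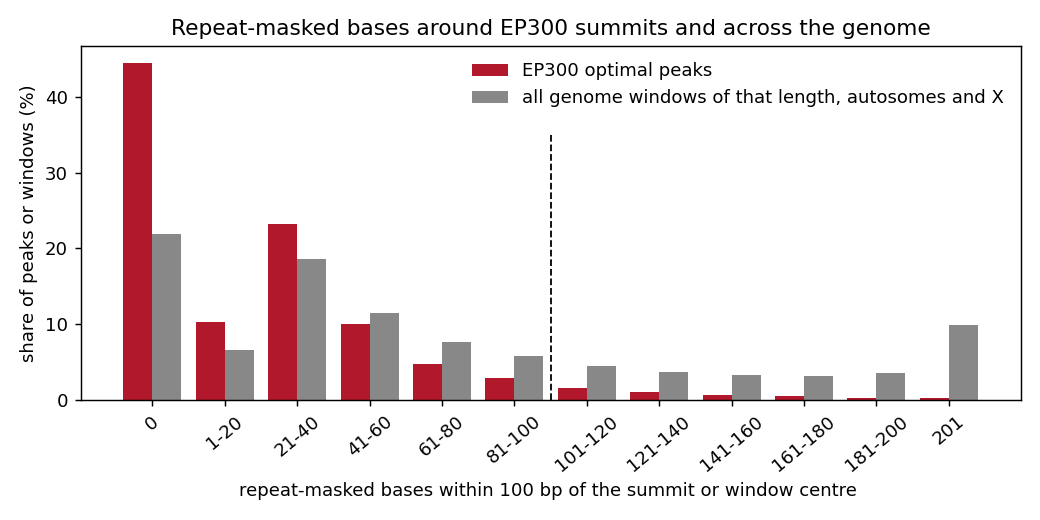
Share of the 17043 optimal peaks (red) and of all windows of that length on the autosomes and X (grey), in percent, by the number of repeat-masked bases within 100 bp of the summit or window centre. Bins to the right of the dashed line pass the rule, and the fully masked bin holds 0.211% of peaks and 9.86% of windows.

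Stronger peaks were masked less often. In the pooled list, 2.20% of the 1000 strongest peaks had a masked summit (Wilson interval 1.46 to 3.31), 3% of ranks 1001 to 5000 (2.51 to 3.58), 4.75% of ranks 5001 to 20000, 10.1% of ranks 20001 to 50000 and 15.8% of ranks 200001 to 300000 (15.6 to 16.0). Within the optimal list the share was 6.86% in the weakest of 10 equal parts by signal (5.76 to 8.16) and 1.94% in the strongest (1.38 to 2.71), with values between 2.88% and 5.05% in the parts between them. The lists of the single libraries, each with 300000 entries, were masked at 14.2% in replicate 1 and 14.0% in replicate 2.

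**Figure D2:**
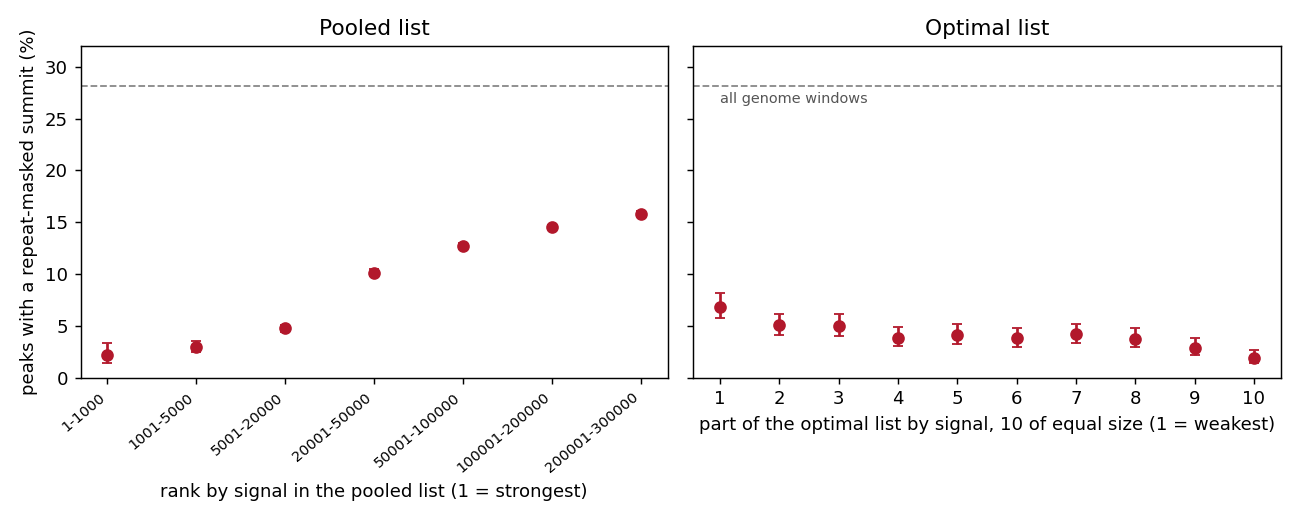
Share of peaks with a repeat-masked summit, in percent with 95% Wilson intervals, by rank in the pooled list (left, strongest first) and by part of the optimal list, 10 of equal size (right, weakest first). The dashed line is the share of all genome windows, 28.1%, and the points lie between 1.94% and 15.8%.

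Masked peaks also had lower signal than other peaks. Their median was 30.9 (95% order-statistic interval 27.6 to 33.8, n = 706), against 39.0 for other peaks (38.3 to 39.7, n = 16337), a log2 ratio of medians of -0.33. The lowest masked peak had 5.27 and the highest 459.3, and other peaks reached 570.3, so the ranges overlap nearly in full. Each library gave the same order: in replicate 1 the medians were 16.5 for masked peaks (15.3 to 18.2) and 21.3 for other peaks (20.9 to 21.7), and in replicate 2 they were 18.1 for masked peaks (16.6 to 19.6) and 22.5 for other peaks (22.1 to 22.9). At promoters the medians were 23.1 for masked and 31.7 for other peaks, in introns 31.0 for masked and 43.3 for other peaks, and in intergenic sequence 34.0 for masked and 41.9 for other peaks. Among peaks with a GATA site they were 35.1 for masked and 47.1 for other peaks, and among those without one 18.6 for masked and 25.4 for other peaks.

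Most masked peaks were found in both libraries, with a summit within 100 bp in each library's list. That was so for 573 of 706 masked peaks, or 81.2% (78.1 to 83.9), against 84.4% of other peaks (83.8 to 84.9) and 84.3% of all optimal peaks. A further 52 masked peaks were found in replicate 1 alone, 65 in replicate 2 alone and 16 in neither list. The difference, -3.23 points (Newcombe interval -6.33 to -0.46), did not hold once the optimal list was cut by signal into 4 parts of equal size. In the weakest part 54.8% of 250 masked peaks and 51.2% of 4011 other peaks were found in both, in the next 90.2% of masked and 88.2% of other peaks, then 98.2% of masked and 97.4% of other peaks, and in the strongest part all 113 masked peaks and 99.9% of other peaks. Of the masked peaks, 504 were also entries of the conservative list, or 71.4%, against 78.7% of other peaks and 78.4% of all optimal peaks. Over the 573 masked peaks found in both, the signals of the libraries correlated with a Spearman rho of 0.819, against 0.854 over 13787 other peaks. These points share the 2 libraries, so the correlation is a description. The signals were within 2-fold of each other for 490 masked peaks, or 85.5%, against 87.2% of other peaks.

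**Figure D3:**
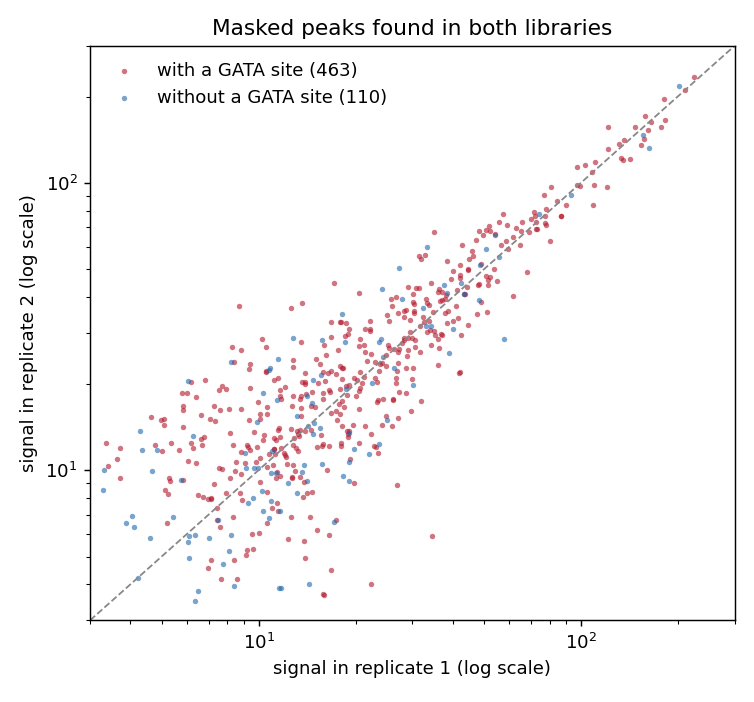
Signal in replicate 1 (horizontal) and in replicate 2 (vertical) of the 573 masked peaks found in both libraries, both on log scales, with 463 peaks that hold a GATA site in red and 110 that do not in blue. The dashed line marks equal values, and 490 peaks lie within 2-fold of it.

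Copies of a repeat can be too alike for a read to be placed. To show how far this bears on the masked peaks, each window was read as words of 32 bases, and the share of words that occur once in the genome was counted. The median share was 91.2% in masked peaks and 100% in other peaks. All words were unique in 187 masked peaks, or 26.5%, against 91.4% of other peaks, and fewer than 50% were unique in 62 masked peaks, or 8.78%, against 0.312% of other peaks. Masked peaks with all words unique had a median signal of 33.7, below the 39.0 of other peaks as a whole, and the 62 with the fewest unique words had 22.4. The classes between them had medians of 32.7 (50 to 75% of words unique), 31.3 (75 to 90%) and 29.9 (90% to under 100%), so the median did not follow the share of unique words throughout. The share found in both libraries was 71.0%, 85.5%, 77.6%, 81.6% and 84.0% in the 5 classes, fewest unique words first. How the authors' processing placed reads with several matches is not given in the sources used here, and its part in the share of masked peaks and in their signal was not tested.

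Over the whole list, GATA sites were about as frequent in masked peaks as in the rest. Within 100 bp of the summit, 529 of 706 masked peaks held a GATA site, or 74.9% (71.6 to 78.0), against 74.7% of other peaks and 74.7% of all optimal peaks, a difference of 0.24 points (Newcombe interval -3.15 to 3.37). With the letters GATA alone the shares were 89.0% for masked (86.4 to 91.1) and 84.5% for other peaks. In flanks 400 to 500 bp from the summit, those letters were in 63.3% of masked and 57.5% of other peaks. In the 4 parts of the optimal list by signal, weakest first, a GATA site was in 57.6% of masked and 55.0% of other peaks, 81.6% of masked and 70.5% of other peaks, 84.6% of masked and 81.1% of other peaks, and 88.5% of masked and 91.5% of other peaks. In flanks of the same total length, 400 to 500 bp from the summit, the shares were 33.0% for masked and 29.2% for other peaks. The distance from the summit to the nearest site had a median of 19.5 bp in masked and 17.5 bp in other peaks. The composite of CTG followed after 7 to 9 bases by a GATA site, the element bound by the TAL1 and GATA1 complex of red cell precursors, was in 189 masked peaks, or 26.8% (23.6 to 30.2), against 27.8% of other peaks and 27.7% of all optimal peaks. Masked peaks with the composite had a median signal of 44.9 (38.4 to 51.6), those with a GATA site alone 32.8 (28.1 to 35.1) and those without a GATA site 18.6 (16.0 to 21.6).

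The site itself was in masked letters in many of these peaks, though sites were masked less often than all 6-letter positions there. Masked letters need not cover a whole repeat copy, so the counts of masked sites do not separate sites inside a repeat from sites outside it. The masked peaks held 903 GATA sites, of which 493, or 54.6% (51.3 to 57.8), had all 6 letters masked, where 64.0% of all 6-letter positions in these windows were masked. Of the 529 masked peaks with a site, 344 had at least 1 in masked letters, with a median signal of 36.4 (33.1 to 41.2), and 185 had sites only outside or across the edge of masked letters, with a median of 34.7 (28.2 to 38.1). The share found in both libraries was 87.8% for the first set, 87.0% for the second and 62.1% for the 177 masked peaks without a site. In all, 263 masked peaks held 2 or more sites and 74 held 3 or more. These counts are not given for other peaks here, so they do not set masked peaks apart. The peak near Padi1 with 15 sites in a run of a repeated 4-letter unit had a signal of 18.6, and the St6galnac3 peak with 6 masked sites had 214.1, so the number of sites and the signal did not go together in this pair.

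**Figure D4:**
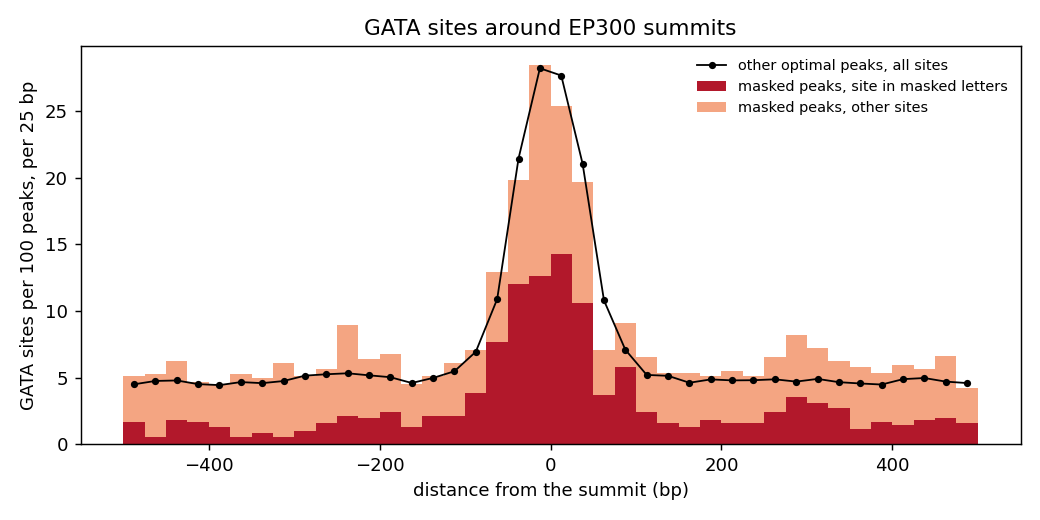
GATA sites per 100 peaks in bins of 25 bp, by distance from the summit in bp. Bars are the 706 masked peaks, with sites in masked letters in dark red and other sites in light red, and the black line is the 16337 other peaks. Both profiles are highest within 25 bp of the summit, at 28.5 and 25.4 sites per 100 masked peaks and 28.2 and 27.7 per 100 other peaks in the bins left and right of it.

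Letters of several general promoter factors were rarer in masked peaks, though not those of NF-Y. The GC box GGGCGG, bound by SP and KLF proteins, was in 3.40% of masked peaks (2.29 to 5.01) and 12.8% of other peaks, and the ETS letters CCGGAAG in 0.567% of masked (4 peaks) and 3.31% of other peaks. The NRF1 element, the CRE letters TGACGTCA and the YY1 letters AANATGGCG were in 0 of 706 masked peaks, which allows a share of up to 0.425% (3 counts of 706), against 0.777%, 0.575% and 0.955% of other peaks in that order. The NF-Y letters CCAAT were in 24.5% of masked (21.5 to 27.8) and 21.5% of other peaks, a difference of 3.001 points whose interval holds 0 (-0.09 to 6.36). The B box of the RNA polymerase III promoter, GTTCNANNC, went the other way, in 115 masked peaks, or 16.3% (13.7 to 19.2), and 6.77% of other peaks, and in flanks of 11.9% of masked and 10.2% of other peaks. The RUNX letters TGTGGT were in 21.7% of masked (18.8 to 24.9) and 17.7% of other peaks. TGASTCA, where S is C or G, the letters of AP-1 and of the erythroid factor NFE2, were in 7.79% of masked (6.03 to 10.004) and 5.83% of other peaks. Among letters of hepatocyte factors, HNF4 (CNAAGTCCA) was in 0.708% of masked and 0.667% of other peaks, and C/EBP (TTGCNNAA) in 6.94% of masked and 8.10% of other peaks. The FOXA letters TRTTTAC were in 2.97% of masked (1.95 to 4.50) and 5.23% of other peaks, a difference of -2.26 points (-3.34 to -0.69). In the flanks these letters were in 6.66% of masked and 5.86% of other peaks, so other peaks had no more of them at the summit than in their flanks. The HNF1 element was in none of either. All 25 patterns were searched on both strands, and a match is a description and not a bound site.

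Masked peaks lay away from promoters more than other peaks did. A summit within 1 kb of an annotated transcription start site was counted as a promoter peak. There were 74 such masked peaks, or 10.5% (8.43 to 13.0), against 26.9% of other peaks and 26.2% of all optimal peaks, a difference of -16.4 points (Newcombe interval -18.6 to -13.9). Introns held 367 masked peaks, or 52.0% (48.3 to 55.6), against 43.9% of other peaks, and intergenic sequence held 248, or 35.1% (31.7 to 38.7), against 25.3%. No masked peak lay in a coding exon, which allows a share of up to 0.425% (3 counts of 706), against 156 other peaks, or 0.955%. Other exons held 17 masked peaks, or 2.41%, against 2.94% of other peaks. The strongest of these masked peaks was in Ndrg3, with a signal of 116.7. Of the 74 promoter peaks, 54 were at protein-coding genes and 3 at small nuclear RNA genes. The distance to the nearest protein-coding start had a median of 10489 bp for masked and 7321 bp for other peaks. Another optimal summit lay within 12.5 kb of 476 masked peaks, or 67.4% (63.9 to 70.8), against 63.7% of other peaks and 63.8% of all optimal peaks.

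Many masked peaks were copies of one another. Windows were aligned to each other, and peaks joined by alignments of at least 100 bases were put in one group. Of the 706, 354 aligned to at least 1 other masked peak and 352 to none, and 14 groups of 5 or more held 295 peaks. The groups are lettered A to N by size, because no repeat family names were used here beyond those in the RefSeq annotation. Grouped peaks had a median signal of 30.8 (27.2 to 34.0) and ungrouped ones 31.3 (27.0 to 34.8). GATA sites were in 71.2% of grouped and 77.6% of ungrouped peaks.

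Group A, with 59 peaks, held a GATA site in 53 of them, and its members had a median signal of 35.1, between 6.10 and 277.0. At a single aligned position, 43 of the 45 members that cover it had a GATA site. For every group this position was taken as the one where most members have a site, so the share of members with it, and the share of copies with it that hold a summit, follow in part from that choice and are descriptions. The genome holds 89504 alignable copies that cover the position, of which 71078, or 79.4%, have a GATA site there. An optimal summit lay in 45 of these copies, 43 with the site and 2 without it. The median share of unique words was 54.7% in this group, the lowest of the 14. The aligned letters of its 3 strongest members with the site, outside annotated exons, are given with the shared position in capitals.
Group A, signal 277.0 (chr13:93428271-93428336, plus strand): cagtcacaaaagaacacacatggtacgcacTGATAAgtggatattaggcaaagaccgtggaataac
Group A, signal 254.3 (chr11:62164505-62164570, minus strand): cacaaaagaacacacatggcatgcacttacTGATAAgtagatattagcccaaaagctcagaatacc
Group A, signal 219.6 (chr4:93556506-93556571, minus strand): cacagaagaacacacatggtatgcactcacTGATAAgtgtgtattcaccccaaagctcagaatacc

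Group D, with 31 peaks and a median signal of 26.1, held a GATA site in 29 of them. At its shared position 15 of 16 covering members had the site, against 67.1% of 28400 genome copies. Optimal summits lay in 16 copies with the site and in 1 without it. Group K was small, with 6 peaks, but its members were strong, with a median of 93.6 and the Alkbh8 peak at 327.4 as the highest. Its position carried the site in 5 of 6 members and in 68.9% of 5768 genome copies. Optimal summits lay in 4 copies with it and in 0 of 1794 without it. Group I, with 7 peaks, had the highest median of the 14 groups, 109.4, and includes the Spata5 peak at 346.8. Only 6 of 865 copies in the genome carried the site at its position, and 3 of its 6 covering members did. As for every group, the copies were searched from the central member, here the one nearest to Coa7, which lacks the site. Copies with the site may thus be missed, and the shares of copies and of members come from separate searches. Optimal summits lay in 1 copy with the site and in 4 of the 859 without it. The 3 group I members with the site at that position had signals of 346.8, 149.8 and 28.6. None of them held a GATA site in masked letters, although the position lies in aligned copies. The strongest members with the site at that position, and for each group the strongest covering member without it, are shown side by side, with the aligned position in capitals. GATA sites elsewhere stay in lower case. The group D stretch without the site at that position holds another GATA site, and the group K stretch holds more than 1. The peak of that group K stretch held 3 GATA sites within 100 bp of its summit. The group I member without the site at that position, nearest to Coa7, held 2 GATA sites within 100 bp of its summit.
Group D, signal 162.5 (chr19:29649789-29649854, minus strand): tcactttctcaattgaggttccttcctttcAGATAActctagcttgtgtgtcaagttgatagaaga
Group D, signal 92.1 (chr5:130646345-130646410, plus strand): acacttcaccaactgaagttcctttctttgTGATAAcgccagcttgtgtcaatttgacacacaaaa
Group D without the site, signal 23.0 (chr4:124053562-124053627, minus strand): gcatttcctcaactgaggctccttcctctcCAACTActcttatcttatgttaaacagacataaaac
Group K, signal 327.4 (chr9:3331161-3331226, plus strand): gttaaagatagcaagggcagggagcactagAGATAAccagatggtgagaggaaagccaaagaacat
Group K, signal 150.6 (chr2:74862140-74862205, minus strand): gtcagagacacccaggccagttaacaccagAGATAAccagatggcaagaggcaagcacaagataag
Group K without the site, signal 41.4 (chr11:70863392-70863457, plus strand): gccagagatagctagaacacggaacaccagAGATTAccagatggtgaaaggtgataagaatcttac
Group I, signal 346.8 (chr3:37559607-37559672, plus strand): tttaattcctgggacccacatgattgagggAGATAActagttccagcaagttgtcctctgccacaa
Group I, signal 149.8 (chr5:34930283-34930348, minus strand): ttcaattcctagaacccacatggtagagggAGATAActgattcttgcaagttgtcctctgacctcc
Group I without the site, signal 126.4 (chr4:108353683-108353748, minus strand): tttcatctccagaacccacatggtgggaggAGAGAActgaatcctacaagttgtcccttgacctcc

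Groups G and E had the site at the shared position in some members and not in others. Group G, with 12 peaks, had the site in 7 of 9 covering members and in 12.4% of 45831 genome copies. Optimal summits lay in 6 of its 5674 copies with the site and in 2 of 40157 without it. In group E, with 30 peaks, 13 of 21 covering members and 58.7% of 44077 copies had the site. Summits lay in 10 of 25861 group E copies with the site, or 0.039%, and in 9 of 18216 without it, or 0.049%. The strongest of group G, fully masked, lay 338 bp from the small nuclear RNA gene Gm22654, with 68.9 in replicate 1 and 67.6 in replicate 2. The strongest of group E, nearest to Cox7a2l, had 110.7 in replicate 1 and 118.3 in replicate 2. In the lines below only the shared position is in capitals. Each member shown without the site there held 1 GATA site elsewhere within 100 bp of its summit.
Group G, signal 133.7 (chr17:55661232-55661297, minus strand): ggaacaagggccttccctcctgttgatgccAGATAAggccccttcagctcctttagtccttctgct
Group G, signal 88.5 (chr17:71291244-71291309, minus strand): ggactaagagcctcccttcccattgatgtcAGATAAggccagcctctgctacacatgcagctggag
Group G without the site, signal 87.7 (chr10:44332767-44332832, plus strand): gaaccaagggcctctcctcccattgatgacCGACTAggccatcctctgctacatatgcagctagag
Group E, signal 234.3 (chr17:83562282-83562347, minus strand): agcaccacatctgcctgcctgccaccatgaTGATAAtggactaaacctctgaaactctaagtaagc
Group E, signal 157.9 (chr4:135439988-135440053, minus strand): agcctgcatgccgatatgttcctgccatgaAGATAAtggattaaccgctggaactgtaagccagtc
Group E without the site, signal 54.1 (chr19:23129992-23130057, minus strand): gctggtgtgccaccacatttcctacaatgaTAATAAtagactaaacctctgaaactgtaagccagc

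Group B was made mostly of B1 copies. Of its 54 peaks, 48 aligned to the copy that RefSeq annotates as SINE:B1_Mus2 at chr7:103823699-103823836, which lies beside the beta-globin genes, and over all masked peaks 82 did, with a median identity of 83.2%. Alignments to the signal recognition particle RNA genes Rn7s1 and Rn7s2 were found for 9 masked peaks, and to tRNA genes for 2. A GATA site was in 35 of the 54 peaks of group B, but the most frequent shared position had it in 6 of 32 covering members only, and the median signal was 22.4. Optimal summits lay in 4 of 7551 genome copies with the site there and in 31 of 207270 without it. The group was found in both libraries for 32 of 54 peaks, the lowest share among the 5 largest groups, and the genome holds 233654 alignable copies, the most of any group. The strongest member of group B with a site lay 738 bp from the start of Ankfy1, which encodes an endosomal protein, with 80.9 in replicate 1 and 96.9 in replicate 2. Its GATA site, in capitals, was not in masked letters.
Group B, Ankfy1 (chr11:72689168-72689368, plus strand): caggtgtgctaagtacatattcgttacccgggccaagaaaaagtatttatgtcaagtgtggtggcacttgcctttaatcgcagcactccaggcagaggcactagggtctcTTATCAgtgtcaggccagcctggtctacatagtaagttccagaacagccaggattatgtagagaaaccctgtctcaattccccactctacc

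The remaining groups were C, with 51 peaks and a median signal of 21.8, and F, H, J, L, M and N, with 5 to 13 peaks each. For group C, optimal summits lay in 2 of 3092 copies with the site at its shared position and in 11 of 111517 without it. Groups L and N held no GATA site in any of their 6 and 5 peaks, and group J held one in 2 of 7. Group F had 4 of 13 peaks with a site and all 13 found in both libraries. The strongest member of group C, in an intron of Slc22a23, had no GATA site and a signal of 293.9 in the optimal list, with 162.3 in replicate 1 and 131.9 in replicate 2. The strongest of group M, nearest to Cdk8, a kinase of the Mediator complex, had 153.8 in replicate 1 and 135.4 in replicate 2. The strongest peaks of D, F, H, J, L and N, near Ermp1, Knstrn, Gm12010, Pced1b, Gm37799 and Slc45a1, had signals of 162.5, 120.8, 142.3, 84.7, 77.0 and 152.5 in that order.

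**Figure D5:**
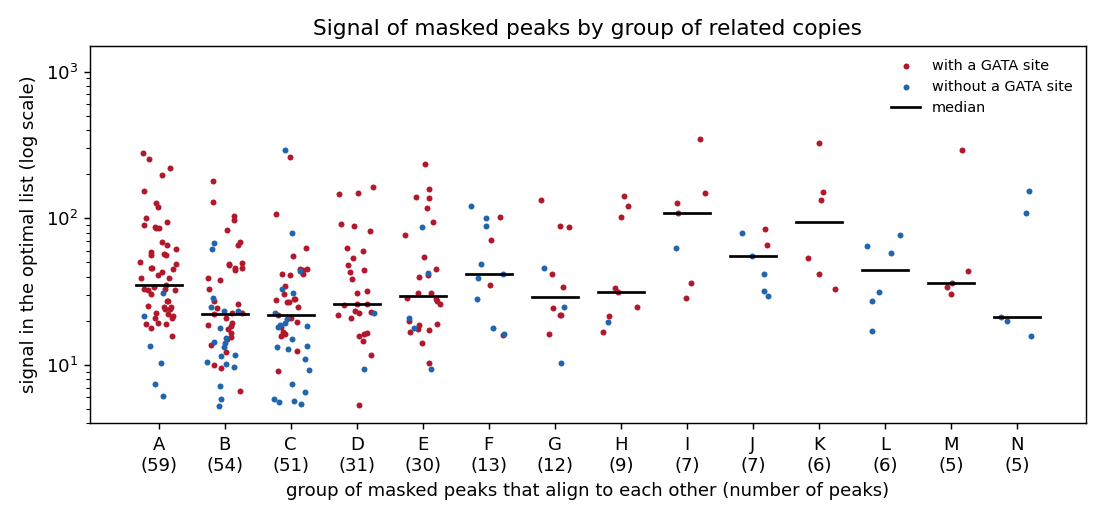
Signal in the optimal list, on a log scale, of the 295 masked peaks in the 14 groups of related copies, with peaks that hold a GATA site in red, those that do not in blue, and the group median as a bar. The medians run between 21.2 in group N and 109.4 in group I.

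A small part of the masked peaks lay near red cell genes, and none lay near the listed genes of other liver cells. In all, 19 of the 706 masked peaks lay near a listed gene. A gene was counted when a masked summit lay within 20 kb of one of its start sites, which held for 691 of 21911 protein-coding genes, or 3.15%, and any optimal peak did for 38.3%. Of 69 genes in 3 erythroid lists, 18 had a masked peak, or 26.1%, and 66 had any optimal peak. Of 195 genes in 8 lists of hepatocyte, megakaryocyte, macrophage, endothelial, stellate and progenitor genes, 0 had one, which allows a share of up to 1.54% (3 counts of 195), and 73, or 37.4%, had any optimal peak. As a check of the tissue label, any optimal peak lay near 20 of 20 erythroid transcription factor genes, 7 of 21 of hepatocytes and 16 of 37 genes of secreted hepatocyte proteins. The lists were drawn up with earlier results on these peaks known, and neighbouring genes can share a peak, so the counts are a description. A counted peak can also lie nearer to the start of a gene outside the lists. All 18 erythroid genes also had other optimal peaks in the window, 1 to 13 more, and across all coding genes 114 of the 691 had none but masked peaks.

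Among erythroid transcription factors, 3 of 20 genes had a masked peak. Gata1, the master regulator of red cell development, had one 15457 bp from its start, a member of group B, with 44.6 in replicate 1 and 49.7 in replicate 2. Gfi1b, which encodes a repressor needed in red cells and platelets, had one at 18225 bp, with 11.5 in replicate 1 and 24.4 in replicate 2 and no GATA site. That peak lay nearer to the start of Gtf3c5, at 13429 bp. Klf1, the activator of the beta-globin gene, had one of signal 13.1 at 6335 bp that was found in replicate 1 alone. The Klf1 peak was a promoter peak of another gene.

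Among globin, membrane and receptor genes, 11 of 33 had a masked peak. At the beta-globin locus, a fully masked pair of group A lay 2373 bp and 5828 bp from the start of Hbb-bt, and neither held a GATA site. The nearer had 19.1 in replicate 1 and 13.5 in replicate 2, and the farther had 11.7 in replicate 1 and 3.88 in replicate 2, and only 31.2% and 32.9% of their words were unique. At the alpha-globin locus, a single peak of group B lay within 20 kb of Hba-x, Hba-a1 and Hba-a2, 3444 bp from Hba-a2, with 9.89 in replicate 1 and 14.7 in replicate 2. Epb41, which encodes protein 4.1 of the red cell membrane skeleton, had the strongest masked peak of this list, with 44.99 in replicate 1 and 54.2 in replicate 2. Rhag, which encodes the Rh-associated glycoprotein, had an intronic peak of group A with 49.1 in replicate 1 and 38.5 in replicate 2. Tfrc, which encodes the transferrin receptor that brings iron into the cell, had one 925 bp from its start, with 14.4 in replicate 1 and 6.86 in replicate 2. The others were Cd47, Hemgn and Tspo2, at signals of 12.1, 14.3 and 54.0 in the optimal list.

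Among genes of heme synthesis and iron import, 4 of 16 had a masked peak. Slc11a2 encodes the iron transporter DMT1 and had the strongest, in an intron, with 80.4 in replicate 1 and 62.6 in replicate 2. Its single GATA site was in masked letters and formed a composite, and 93.5% of its words were unique. Fech, which encodes ferrochelatase, the last enzyme of heme synthesis, had a pair, at signals of 26.9 and 12.5 in the optimal list, the stronger of them 890 bp from the start of Nars. Ppox, the enzyme before it, had one of 11.6, and Slc25a38, the mitochondrial glycine carrier, one of 19.1. The peak counted for Ppox lay 6333 bp from the Ppox start, at a promoter within B4galt3. The windows of the Slc11a2 and Rhag peaks are shown because they are the strongest near listed genes that hold a GATA site in masked letters, with GATA sites in capitals.
Slc11a2, intron (chr15:100391676-100391876, plus strand): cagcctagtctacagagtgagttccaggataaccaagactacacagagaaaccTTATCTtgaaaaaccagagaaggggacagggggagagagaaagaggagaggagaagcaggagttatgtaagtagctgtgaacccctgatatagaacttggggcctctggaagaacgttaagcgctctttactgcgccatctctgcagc
Rhag, intron (chr17:40817716-40817916, plus strand): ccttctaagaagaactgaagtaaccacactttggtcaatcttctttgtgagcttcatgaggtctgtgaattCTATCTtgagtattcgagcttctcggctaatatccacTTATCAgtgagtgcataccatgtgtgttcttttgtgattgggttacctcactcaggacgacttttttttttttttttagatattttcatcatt

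A list of genes that silence repeats, among them histone methyltransferases and heterochromatin proteins, had a masked peak at 2 of 29 genes. They were Ehmt1, a methyltransferase of histone H3 lysine 9, with 8.45 in replicate 1 and 9.96 in replicate 2 and the summit 772 bp from a start, and Daxx, a histone chaperone, with a summit in an intron of its neighbour Tapbp, 7.27 in replicate 1 and 16.7 in replicate 2. This is a share of 6.90% (1.91 to 22.0), whose interval holds the 3.15% of all coding genes.

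Peaks next to the threshold had values on both sides of it that overlapped. With 1 masked base more than the threshold, the 3 strongest masked peaks had signals of 422.3 near Slc16a10, 174.3 near Raly and 94.99 near Gpr82. With exactly 100 masked bases, the 3 strongest other peaks had 65.1 near Hs6st1, 58.2 near Sipa1l1 and 49.9 near Atrnl1. Up to 5 bases past the threshold, 70 masked peaks had a median signal of 28.9, and over 96 to 100 masked bases, 109 other peaks had 32.2.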

How the data were processed

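The authors deposited narrowPeak lists on mm10 (GRCm38): 300000 peaks for each library, a pooled list, and 2 lists kept for reproducibility, the optimal and the conservative one. Filtered alignments and 1 control file went into the list of a library, per the listings deposited beside it. Aligner, peak caller and threshold: not given in the sources used here. The signal that the authors deposited is the peak caller's value for a peak, and the deposited score was not used. Depth is unknown.

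Masked letters were read from the RefSeq GRCm38 FASTA, which does not state its masking method, and 34.3% of bases on the autosomes and X are masked in it. Other masks would choose other peaks. Genes are from GENCODE vM21, and elements from the RefSeq annotation. Copies were aligned with BLAST+ 2.17.0 at an e-value of 1e-10 or lower, and genome copies of a group were alignments over at least 50% of its central member. Shares have Wilson intervals, differences Newcombe intervals and medians order-statistic intervals, all at 95%, the limit beside a count of 0 is 3 counts of the total and not a Wilson bound, and no test was run, since there is 1 group. The counting code was tested on simulated data.

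Named are the 12 strongest masked peaks, the 2 strongest near each gene list, the strongest of each repeat group, location class, composite and tandem repeat, and 3 peaks on each side of the threshold. The members, lists and motifs were chosen with earlier results of these data known. Alternatives were stricter masks, a 50 bp window, other lists and single libraries.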

Additional observations from a re-analysis of the deposited data

How the results depend on the processing

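No paired analysis was possible because both libraries form 1 group. Of 47 alternative values of 5 results, 11 fell outside the interval of the reported value, 3 reversed a difference whose interval excluded 0, and 33 stayed within the interval; the cause was not tested. The masked share of peaks moved by construction, to 1.24% with more than 150 masked bases, 0.211% with all bases masked and 4.99% within 50 bp of the summit, and to 3.31% above the median signal; it was between 4.204% and 4.43% with 1 library left out. The difference in the share found in both libraries was -7.09 points with more than 150 masked bases and -7.80 within 50 bp, and it reversed to 4.64 with all bases masked (interval -9.57 to 11.4), to 0.26 above the median signal (-1.77 to 1.01) and to 0.10 in the top of the pooled list (-2.49 to 2.26). With 1 library left out of the choice of peaks it was between -6.62 and -4.18 points, though a share found in both libraries still draws on that library. It was -1.25 points with summits within 25 bp (-5.00 to 2.51). The difference in the share with a GATA site, whose interval holds 0 as reported, changed sign in 5 alternatives, at -1.73 with more than 150 masked bases, -1.94 within 50 bp of the summit, -0.57 with the motif within 50 bp, -0.16 above the median signal and -0.15 without replicate 2. It moved to 4.49 points in the top of the pooled list (1.26 to 7.39) and to 4.50 with the letters GATA alone (1.91 to 6.68). For the letters GATA alone the flanks also differed, at 63.3% for masked and 57.5% for other peaks. The difference in the promoter share was -20.7 points with all bases masked and between -18.7 and -16.9 with 1 library left out. The log2 ratio of median signals stayed below 0 throughout, between -0.51 and -0.23, though its interval held 0 with all bases masked (-0.83 to 0.27). Depth is unknown, the mask and the alignability of repeats bound what can be found, and 2 libraries of 1 biosample give no spread between animals.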
